A study of Mus musculus with 18 samples.

Results

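The interleukin-1 (IL-1) family and inflammasome genes described here are Il1a, Il1b, Il1rn, Il18, Nlrp3, Casp1 and Casp4. They were taken by gene symbol from the platform annotation, and all 7 were found, each on a single row, among 19454 genes with 1 symbol. All 7 also passed the limit on low signal that left 10484 genes for testing. The cells were bone marrow-derived macrophages, which are grown from marrow precursors with the growth factor M-CSF, from C57Bl/6 mice. The mutant cells, called KO, were TTP-/- and so lacked tristetraprolin, the protein encoded by Zfp36, and the other cells were wild type (WT). All cells, WT included, first received lipopolysaccharide (LPS), a bacterial stimulus, for 3 h. Fresh medium with actinomycin D, which blocks transcription, and SB203580, which inhibits the kinase p38, was then given for 0, 45 or 90 min, so transcription block and p38 inhibition always ran together. Each RNA sample was hybridised to an Affymetrix Mouse Gene ST array, 18 arrays in all, with 3 for KO at each of 0, 45 and 90 min and 3 for WT at each time. The sources used here do not give the age of the mice or say whether arrays of a group came from separate animals, so p-values cover the spread between these arrays, which may be technical.

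IL-1 alpha and IL-1 beta are inflammatory cytokines that signal through the same receptor, and the IL-1 receptor antagonist, encoded by Il1rn, occupies that receptor without signalling. NLRP3 is a sensor that assembles an inflammasome with the adaptor ASC and caspase-1, and caspase-1 cleaves the precursors of IL-1 beta and IL-18 and the pore protein gasdermin D. Mouse Casp4 encodes caspase-11, which senses LPS in the cytosol. In macrophages LPS induces Il1a, Il1b and Nlrp3, whereas the IL-18 precursor is made without stimulation too. TTP recognises AU-rich stretches near the end of an mRNA and brings in enzymes that shorten the poly(A) tail, and p38 signalling restrains it. The mRNAs of Il1a and Il1b are known to carry such stretches. The comparison of decay between KO and WT addresses which mRNAs need TTP for their loss.

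Il1a and Il1b are neighbours on chromosome 2, with no other protein-coding gene between them in the RefSeq annotation, and their signals are compared with each other further on. Casp1 and Casp4 are likewise neighbours, on chromosome 9. The RefSeq windows from 250 bases before to 50 after the annotated start (GRCm38.p6) of Il1a (chr2:129309923-129310222, minus strand), Il1b (chr2:129371090-129371389, minus strand) and Casp4 (chr9:5308599-5308898, plus strand) are shown. These 3 windows are examples that hold matches few promoters have. Other windows, of Il1rn and Casp4, also hold such matches and are not shown. Capitals mark matches to 3 motifs, each searched on both strands: the TATA box letters TATAAA, the AP-1 core TGANTCA, and an NF-kB form that reads GGG, then any 2 bases, then TTTCC. The AP-1 core reads the same on both, and no marked match overlaps another.
Il1a: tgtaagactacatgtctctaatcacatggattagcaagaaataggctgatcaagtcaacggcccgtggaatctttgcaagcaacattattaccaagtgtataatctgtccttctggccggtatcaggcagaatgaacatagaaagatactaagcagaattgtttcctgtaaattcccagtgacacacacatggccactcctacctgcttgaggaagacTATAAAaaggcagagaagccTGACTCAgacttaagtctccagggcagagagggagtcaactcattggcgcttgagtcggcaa
Il1b: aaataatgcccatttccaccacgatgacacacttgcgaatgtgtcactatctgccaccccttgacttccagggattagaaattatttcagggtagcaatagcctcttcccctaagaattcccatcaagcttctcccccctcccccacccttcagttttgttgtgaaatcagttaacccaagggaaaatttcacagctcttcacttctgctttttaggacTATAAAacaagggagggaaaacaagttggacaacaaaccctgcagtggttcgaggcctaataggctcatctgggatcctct
Casp4: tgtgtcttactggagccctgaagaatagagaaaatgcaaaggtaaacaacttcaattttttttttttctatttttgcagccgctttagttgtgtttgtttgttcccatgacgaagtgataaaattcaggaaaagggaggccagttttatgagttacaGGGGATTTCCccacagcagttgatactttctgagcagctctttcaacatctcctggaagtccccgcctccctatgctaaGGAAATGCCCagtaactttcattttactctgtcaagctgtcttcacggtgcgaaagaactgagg

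The TATA box letters began 32 bases before the start in Il1a and 31 bases before it in Il1b. Of 32851 promoter windows, 1.99% held TATAAA on the gene's strand between 20 and 40 bases before the start, and of the 11 windows of the 7 genes only those of Il1a and Il1b did. TATAAA anywhere in the window on either strand was found in 13.6% of windows. The AP-1 core was found in 7.81% of windows, in that of Il1a and in 1 of the Il1rn windows. The NF-kB form was found in 1.63% of windows, in those of Casp4 and in the Il1rn windows without the AP-1 core. A C/EBP form, TTNNGCAA, was also searched and was found in 10.8% of windows and in 0 of the 11. A letter match is a description of these windows, and binding was not measured here.

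Median intensity per array was 7.41 to 8.19, and correlations of log2 signals within groups were 0.962 to 0.995. Replicate 3 of every group has a lower sample number in its title than replicates 1 and 2, and these 6 arrays stood apart: on the first principal component (28.8% of variance) they scored 12.03 to 30.9, against -23.1 to -5.81 for replicates 1 and 2. Values are therefore also given from a fit that blocks on the title-number series, called the series block, and within replicates 1 and 2. Replicate 3 alone has 1 array per group and no test. In these bulk samples fewer cells of a type and less RNA per cell cannot be told apart. All 8 macrophage markers were above the signal limit, with a summed intensity of 10242 to 13183 in KO and 9358 to 12681 in WT, and of 11334 to 13183 in replicate 3 and 9358 to 11796 in replicates 1 and 2. Of 8 neutrophil markers only Mmp8 was above the limit, with sums of 58.4 to 79.0 in KO and 56.2 to 80.0 in WT. Above the limit were also 2 of 6 dendritic cell markers (Zbtb46 and Ccr7), 1 of 4 measured T and NK cell markers (Cd3e), 3 of 5 fibroblast markers (Col1a1, Col1a2 and Col3a1) and 0 of 3 B cell and 0 of 4 mast cell markers. Zfp36, the targeted gene, had a log2 intensity of 6.25 to 6.81 in KO and 7.12 to 7.95 in WT at 0 min, 5.11 to 5.58 in KO and 4.47 to 4.93 in WT at 45 min, and 4.42 to 5.97 in KO and 4.10 to 4.15 in WT at 90 min. The KO arrays were lower at 0 min and higher afterwards without overlap, and the 0 min difference was -1.04 ± 0.32 (SE, limma adjusted p 0.563), or -1.40 within replicates 1 and 2 (adjusted p 0.0148). The array row reports the whole gene and the sources used here do not say which stretch was deleted, so this value does not check the genotype labels.

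Il1a, Il1b and Nlrp3 had lower signals in WT 90 min after the transcription block than before it, and smaller losses in KO by point estimate. With 1 spread over all arrays and no block, 0 of the 7 genes passed in WT at 90 min, against 1.19% of genes tested. The limma threshold was an adjusted p below 0.05. At an unadjusted p below 0.05 there were 4 of the 7 and 9.42% of all genes. These 4 were Il1a, Il1b and Nlrp3, which were lower, and Casp4, which was higher (0.50, with -0.53 in replicate 3). With the series block Il1a, Il1b and Nlrp3 passed, 3 of the 7 against 2.86% of all genes. This block takes the gap of replicate 3 to replicates 1 and 2 as equal in all groups. In WT at 0 and 90 min it was 0.85 and -0.37 for Il1a, 0.81 and 0.21 for Il1b, and 0.55 and 0.73 for Nlrp3. Same-numbered WT arrays at these times did not all deviate together (lowest correlation of deviations -0.287). The blocked p-values in WT at 90 min depend on this assumption. Within replicates 1 and 2, 5 of the 7 passed, against 13% of all genes: Il1a, Il1b and Nlrp3 were lower, and Casp1 and Casp4 were higher. In KO at 90 min 0 of the 7 passed without a block, against 0.219% of all genes, and 0 with the series block, against 0.582%. At an unadjusted p below 0.05 the counts in KO were 0 of the 7 and 562 of 10484 genes without a block, and 1 of the 7 and 885 of 10484 with it.

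**Figure D1:**
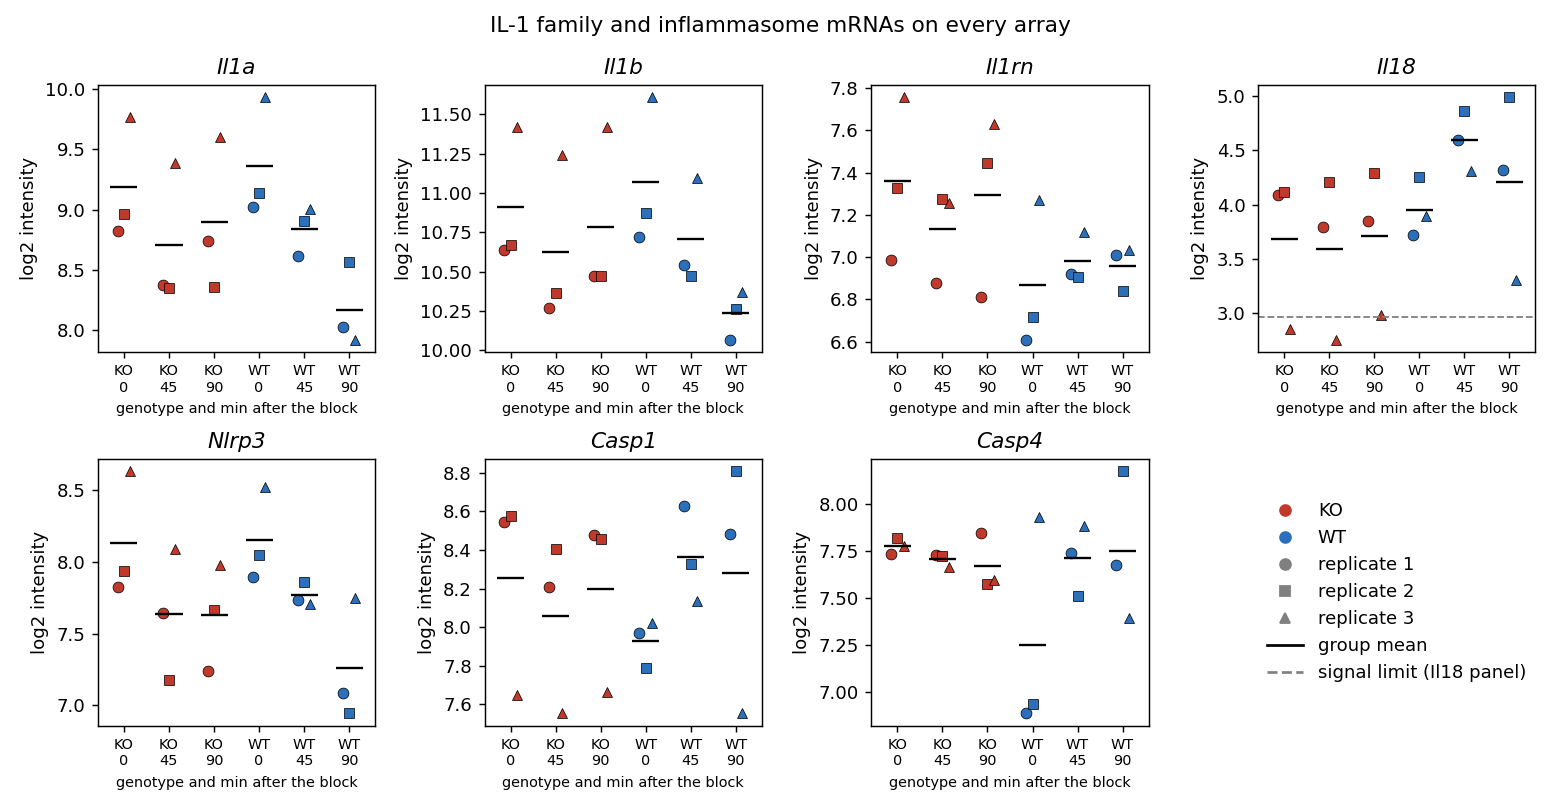
Log2 intensity of the 7 genes on every array, for KO and WT at 0, 45 and 90 min after the transcription block (x axis). Each symbol is 1 array, its shape gives the replicate, the bar is the mean of 3 arrays, and the dashed line is the signal limit of 2.97. In WT at 90 min the Il1b arrays lie between 10.07 and 10.37, below the 3 KO arrays at 90 min and the 3 WT arrays at 0 min. The share of all genes that separate so was not counted.

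Il1a encodes IL-1 alpha, which can signal without cleavage by caspase-1. In KO replicates 1, 2 and 3 its log2 intensity was 8.82, 8.96 and 9.77 at 0 min, 8.37, 8.35 and 9.39 at 45 min, and 8.74, 8.36 and 9.60 at 90 min. In WT it was 9.02, 9.14 and 9.93 at 0 min, 8.61, 8.90 and 9.01 at 45 min, and 8.02, 8.57 and 7.92 at 90 min. The WT arrays at 45 and at 90 min were all below those at 0 min, whereas the KO groups overlapped. The share of all genes whose groups separate was not counted, for Il1a or for the genes that follow. The log2 change over 90 min was -0.29 ± 0.35 in KO (SE, n = 3 arrays per group), which left 82.1% of the signal at 0 min. It was -1.19 ± 0.35 in WT, which left 43.8% (limma adjusted p 0.146 without a block, 0.00977 with the series block, and 0.0199 within replicates 1 and 2, where the change was -0.78). Per replicate number the WT change was -0.995, -0.57 and -2.01, so replicate 3 gave the largest loss. RMA scales arrays to each other, so a loss here is relative to the other mRNAs measured, although the deposited arrays still differed in their medians.

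Il1b encodes the IL-1 beta precursor, the main cytokine substrate of caspase-1. In KO its log2 intensity was 10.64, 10.67 and 11.42 at 0 min, 10.27, 10.37 and 11.24 at 45 min, and 10.47, 10.47 and 11.42 at 90 min. WT arrays gave 10.72, 10.88 and 11.61 at 0 min, 10.54, 10.48 and 11.09 at 45 min, and 10.07, 10.27 and 10.37 at 90 min. The WT arrays at 90 min were below all WT arrays at 0 min and below all KO arrays at 90 min. That separation was not set against the share of all genes. The KO change over 90 min was -0.12 ± 0.32, which left 91.9% of the signal, and was -0.16, -0.20 and -0.00 by replicate. The WT change was -0.83 ± 0.32, which left 56.1%, and was -0.65, -0.61 and -1.24 by replicate. In WT the limma adjusted p was 0.342 without a block, 0.00331 with the series block, and 0.0155 within replicates 1 and 2, where the change was -0.63.

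At 45 min the genotypes had near point estimates for both cytokine mRNAs. For Il1a the log2 change at 45 min was -0.48 ± 0.35 in KO and -0.52 ± 0.35 in WT. For Il1b it was -0.28 ± 0.32 in KO and -0.36 ± 0.32 in WT. Without a block none of the 7 genes passed at 45 min, against 0.0477% of all genes in KO and 0.124% in WT. At an unadjusted limma p below 0.05 there were 0 of the 7 in either genotype. The counts over 10484 genes were 556 in KO and 406 in WT. With the series block none passed either, against 33 of 10484 genes in WT and 28 in KO. With this block the unadjusted limma p in WT was 0.0497 for Il1a, 0.0273 for Il1b and 0.0483 for Nlrp3, all lower. It was 0.0244 for Il18 and 0.0472 for Casp1, both higher, and 0.522 for Il1rn and 0.0582 for Casp4. In KO only Nlrp3 was below 0.05, at 0.0141. The share of all genes at that limit with the block was not counted, so these unadjusted p-values are no result about the 7 genes. From 45 to 90 min the mean of Il1a moved to 8.90 in KO, against 8.70 before, and to 8.17 in WT, against 8.84 before; this interval was not tested.

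**Figure D2:**
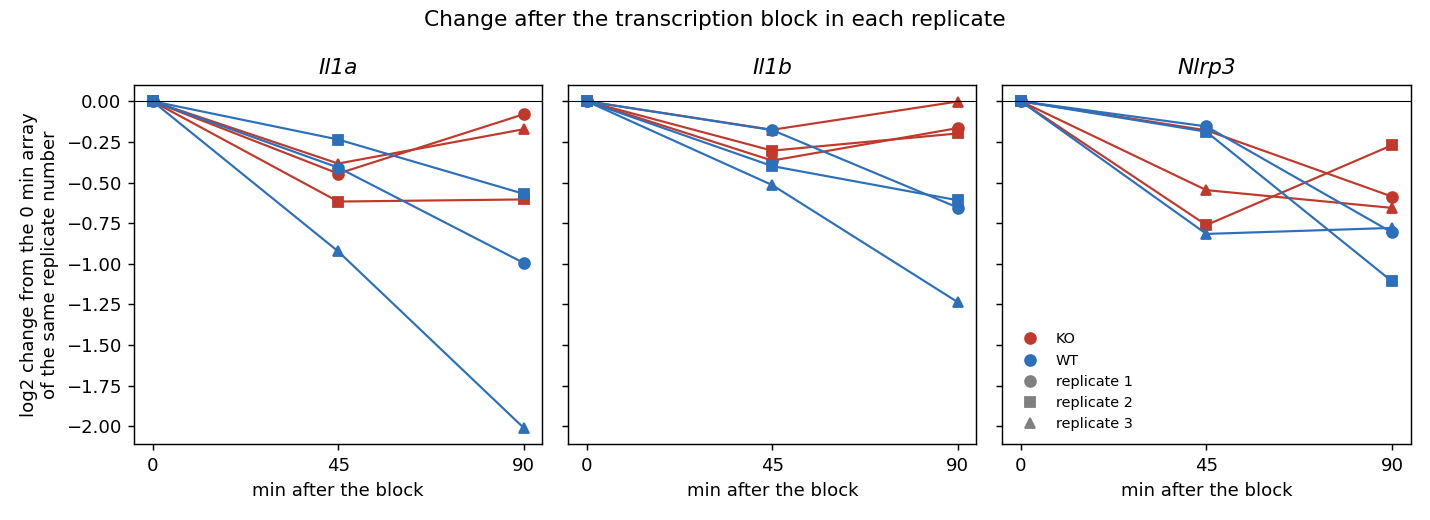
Log2 change of Il1a, Il1b and Nlrp3 from the 0 min array of the same replicate number (y axis) at 0, 45 and 90 min after the transcription block (x axis), with 1 line for each replicate of KO and of WT. For Il1b all 3 KO lines end between -0.20 and 0 and all 3 WT lines between -1.24 and -0.61, whereas the Il1a lines of replicate 2 end at -0.60 in KO and -0.57 in WT.

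Nlrp3 encodes the sensor whose level limits NLRP3 inflammasome assembly in resting macrophages. In KO its log2 intensity was 7.82, 7.94 and 8.64 at 0 min, 7.64, 7.17 and 8.09 at 45 min, and 7.24, 7.67 and 7.98 at 90 min. In WT it was 7.89, 8.05 and 8.53 at 0 min, 7.74, 7.86 and 7.71 at 45 min, and 7.09, 6.94 and 7.75 at 90 min. All 3 replicates were lower at 90 min than at 0 min in both genotypes, and only the WT groups did not overlap. Since the share of all genes that separate was not counted, this is a description. The change over 90 min was -0.50 ± 0.28 in KO, which left 70.5% of the signal (limma adjusted p 0.9998 without a block and 0.354 with the series block). It was -0.90 ± 0.28 in WT, which left 53.7% (adjusted p 0.183 without a block, 0.00773 with the series block, and 0.00627 within replicates 1 and 2, where it was -0.96). Among these 3 genes Nlrp3 had the largest loss in KO by point estimate.

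Il1rn encodes the receptor antagonist, which counteracts both IL-1 cytokines. In KO its log2 intensity was 6.99, 7.33 and 7.76 at 0 min, 6.88, 7.27 and 7.26 at 45 min, and 6.81, 7.44 and 7.63 at 90 min. WT arrays gave 6.61, 6.72 and 7.27 at 0 min, 6.92, 6.91 and 7.12 at 45 min, and 7.01, 6.84 and 7.03 at 90 min. The groups overlapped at every time in both genotypes. The change over 90 min was -0.06 ± 0.23 in KO (95% interval -0.55 to 0.43) and 0.09 ± 0.23 in WT (-0.39 to 0.58).

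Il18 encodes the precursor of IL-18, the other cytokine cleaved by caspase-1. In KO its log2 intensity was 4.08, 4.12 and 2.86 at 0 min, 3.80, 4.21 and 2.76 at 45 min, and 3.85, 4.29 and 2.99 at 90 min. In WT it was 3.72, 4.26 and 3.89 at 0 min, 4.60, 4.87 and 4.31 at 45 min, and 4.32, 4.99 and 3.31 at 90 min. The 3 KO arrays of replicate 3 were the lowest, and 2 of them were below the signal limit of 2.97, so background bounds these values. The change over 90 min was 0.02 ± 0.44 in KO (95% interval -0.91 to 0.96) and 0.25 ± 0.44 in WT (-0.69 to 1.19).

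Casp1 encodes the protease of the inflammasome. In KO its log2 intensity was 8.54, 8.58 and 7.65 at 0 min, 8.21, 8.41 and 7.55 at 45 min, and 8.48, 8.45 and 7.66 at 90 min. WT arrays gave 7.97, 7.79 and 8.02 at 0 min, 8.63, 8.33 and 8.13 at 45 min, and 8.48, 8.81 and 7.55 at 90 min. In each KO group replicate 3 was the lowest array, and the WT arrays at 45 min were all above those at 0 min. How common such a separation is among all genes was not counted. At 45 min all 3 KO replicates were below and all 3 WT replicates above their 0 min array, by -0.33, -0.17 and -0.10 in KO and 0.66, 0.54 and 0.11 in WT. The decay difference at 45 min, the KO change minus the WT change, was -0.64 ± 0.46 (95% interval -1.60 to 0.33, limma adjusted p 0.99997). With the series block its interval was -1.25 to -0.03 (unadjusted limma p 0.0416, adjusted p 0.864). The log2 change over 90 min was -0.06 ± 0.32 in KO and 0.36 ± 0.32 in WT.

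Casp4, the gene of caspase-11, had a log2 intensity in KO of 7.74, 7.82 and 7.78 at 0 min, 7.73, 7.73 and 7.66 at 45 min, and 7.84, 7.58 and 7.60 at 90 min. In WT it was 6.89, 6.94 and 7.93 at 0 min, 7.74, 7.51 and 7.89 at 45 min, and 7.68, 8.18 and 7.40 at 90 min. WT replicates 1 and 2 at 0 min were lower than the other 16 arrays. The change over 90 min was -0.11 ± 0.24 in KO and 0.50 ± 0.24 in WT (limma adjusted p 0.529). By replicate the WT change was 0.79, 1.24 and -0.53. Within replicates 1 and 2 it was 1.02 for Casp4 (adjusted p 0.00420) and 0.77 for Casp1 (adjusted p 0.0112), opposite in sign to replicate 3, where Casp1 had -0.47. Without WT 0 min replicate 3 the Casp4 change was 0.84 at 90 min (adjusted p 0.0263) and 0.80 at 45 min (adjusted p 0.0398), and 291 and 252 genes were called in these comparisons in place of 125 and 13.

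For each of the 7 genes the 6 group means were ordered by level. No neighbours in any of these orders were farther apart than the larger of their 2 SDs. Il1a averaged 9.18 ± 0.51, 8.70 ± 0.59 and 8.90 ± 0.63 in KO at 0, 45 and 90 min, and 9.36 ± 0.50, 8.84 ± 0.21 and 8.17 ± 0.35 in WT (SD, n = 3 each). Il1b averaged 10.91 ± 0.44, 10.63 ± 0.54 and 10.79 ± 0.55 in KO, and 11.07 ± 0.47, 10.70 ± 0.34 and 10.24 ± 0.15 in WT. For both genes the order of the means, highest first, was WT 0 min, KO 0 min, KO 90 min, WT 45 min, KO 45 min and WT 90 min. Nlrp3 also had its lowest mean in WT at 90 min, whereas Il1rn, Casp1 and Casp4 had theirs in WT at 0 min and Il18 in KO at 45 min.

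The loss of Il1a and Il1b mRNA over 90 min was smaller in KO than in WT by point estimate, and the difference did not pass the threshold over all genes. The decay difference, the log2 change in KO minus that in WT, was 0.91 ± 0.50 for Il1a at 90 min (95% interval -0.14 to 1.95, limma adjusted p 0.999). By replicate number it was 0.92, -0.03 and 1.84. For Il1b it was 0.71 ± 0.45 (-0.24 to 1.66, adjusted p 0.999), and 0.49, 0.41 and 1.24 by replicate. With the series block the intervals were 0.17 to 1.64 for Il1a and 0.26 to 1.16 for Il1b, with unadjusted p of 0.0188 and 0.00378 and an adjusted p of 0.881 for both. For Nlrp3 the decay difference was 0.39 ± 0.39 (-0.44 to 1.22), and 0.22, 0.84 and 0.12 by replicate.

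The other 4 genes had negative decay differences at 90 min. They were -0.16 ± 0.33 for Il1rn, -0.23 ± 0.63 for Il18, -0.41 ± 0.46 for Casp1 and -0.61 ± 0.33 for Casp4, and none passed. For these 4 genes replicate 3 had the opposite sign to the mean of replicates 1 and 2, at 0.11, 0.71, 0.48 and 0.35. In limma 0 of the 7 genes passed at 90 min without a block, against 0.0191% of all genes, and 0 with the series block, against 0.0286%; at an unadjusted p below 0.05 there were 0 and 2 of the 7, and 284 and 490 of 10484 genes. At 45 min without a block 0 of the 7 passed, against 0.00954% of all genes. At an unadjusted limma p below 0.05 there were 0 of the 7 and 197 of 10484 genes. With the series block none passed, against 1 of 10484 genes. Only Casp1 had an unadjusted limma p below 0.05 with it (0.0416), and the share of all genes at that limit was not counted. The median over the 7 genes at 90 min was -0.16, against 0.04 over all genes. Tnf, given as the yardstick of TTP-dependent decay, had a decay difference of 3.79 ± 0.26 at 90 min (adjusted p 3.69e-07), outside the intervals of all 7 genes.

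**Figure D3:**
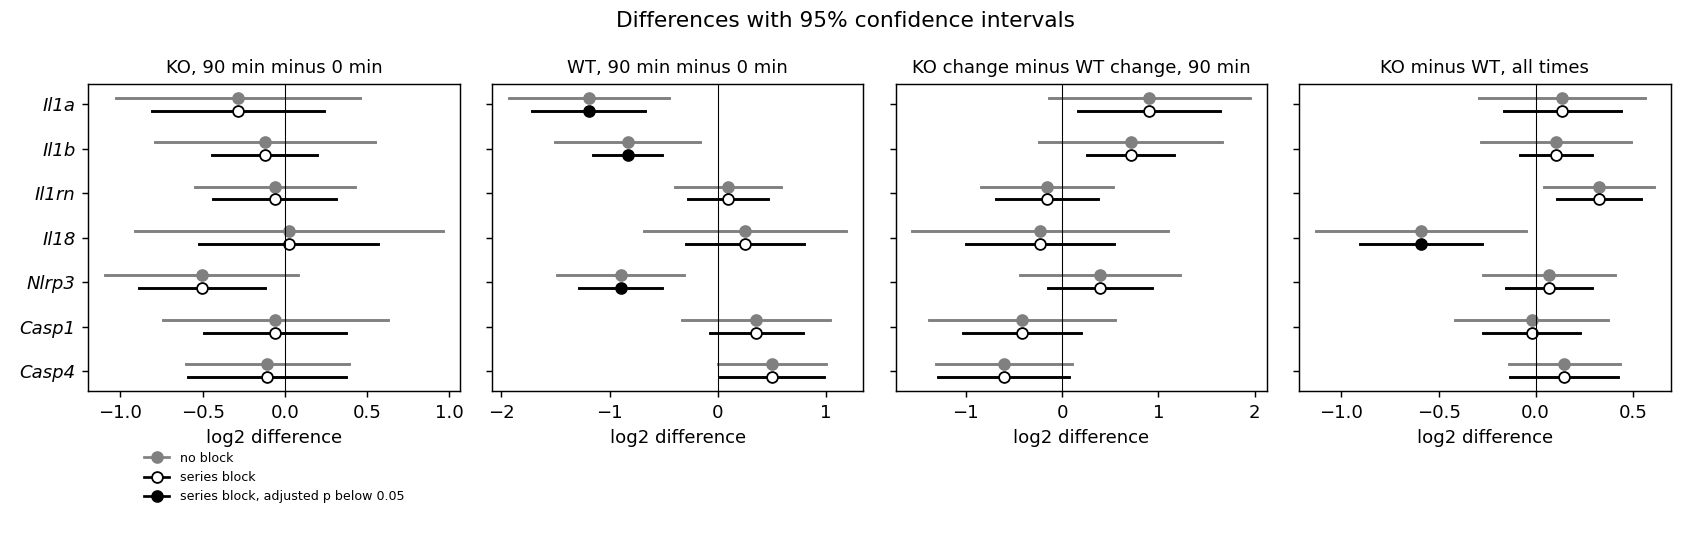
Log2 differences of the 7 genes (rows) with 95% confidence intervals for the change over 90 min in KO, the change over 90 min in WT, the KO change minus the WT change, and KO minus WT over all times. Grey is the fit without a block and black the fit with the series block, where filled symbols mark an adjusted p below 0.05. Filled symbols appear for Il1a, Il1b and Nlrp3 in WT and for Il18 in the comparison of the genotypes. They depend on the block, which takes the gap of replicate 3 as equal in all groups.

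Before the transcription block Casp4 and Il1rn had the largest differences of the 7 genes between genotypes, and neither passed. At 0 min the log2 difference, KO minus WT, was -0.18 ± 0.35 for Il1a (95% interval -0.92 to 0.56), -0.16 ± 0.32 for Il1b (-0.83 to 0.51) and -0.02 ± 0.28 for Nlrp3 (-0.61 to 0.56). Centring the arrays on ribosomal protein genes moved the median of all genes by 0.30 here and turned the signs of all 3, to 0.12 for Il1a, 0.14 for Il1b and 0.28 for Nlrp3. For Il1rn it was 0.49 ± 0.23, with 0.38, 0.61 and 0.49 by replicate (limma adjusted p 0.657, and 0.277 with the series block). For Casp4 it was 0.53 ± 0.24, with 0.85, 0.89 and -0.15 by replicate (adjusted p 0.657). None of the 7 genes passed at 0 min, and neither did any other gene, which makes 0% of 10484; at an unadjusted limma p below 0.05 there were 2 of the 7, Il1rn and Casp4, and 788 of all genes. Within replicates 1 and 2 Casp1 (0.68, adjusted p 0.0258) and Casp4 (0.87, adjusted p 0.0109) were higher in KO, 2 of the 7 against 8.89% of all genes. Without WT 0 min replicate 3 Casp4 was higher in KO by 0.87 (adjusted p 0.0127), with 807 genes called.

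At 90 min the KO minus WT difference was 0.73 ± 0.35 for Il1a, with 0.72, -0.21 and 1.68 by replicate (limma adjusted p 0.863, and 0.266 with the series block). For Il1b it was 0.55 ± 0.32, with 0.40, 0.21 and 1.04 by replicate (adjusted p 0.890, and 0.12 with the series block). Il1b was the only one of the 7 whose KO and WT arrays did not overlap at this time, and Il18 was the only one at 45 min. How many of all genes separate in this way was not counted, so neither separation is a result about the gene. For Il18 the KO replicate 3 array at 45 min was below the signal limit. At 90 min none of the 7 passed, against 0.143% of all genes. At an unadjusted limma p below 0.05 there were 0 of the 7 and 607 of 10484 genes.

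Over all times Il18 had a lower and Il1rn a higher mean in KO. The Il18 difference, KO minus WT, was -0.59 ± 0.26 over 9 arrays of each genotype, with an adjusted limma p of 0.371 without a block and 0.0275 with the series block. By replicate it was 0.37, -0.14 and -1.04 at 0 min and -0.80, -0.66 and -1.55 at 45 min. At 90 min it was -0.47, -0.70 and -0.33. Same-numbered KO arrays deviated together across times, so the 9 arrays and these p-values may stand for fewer independent samples. Within replicates 1 and 2 it was -0.40 (adjusted p 0.119), and the replicate 3 arrays of KO lay near the signal limit. The Il1rn difference was 0.33 ± 0.13 (limma adjusted p 0.337 without a block and 0.0799 with the series block). For the other genes it was 0.14 ± 0.20 for Il1a, 0.10 ± 0.18 for Il1b, 0.07 ± 0.16 for Nlrp3, -0.02 ± 0.19 for Casp1 and 0.15 ± 0.14 for Casp4. Of the 7 genes 0 passed without a block, against 1.28% of all genes (89 higher and 45 lower, or 578 and 28 with arrays centred on ribosomal protein genes), 1 passed with the series block, against 4.68%, and 0 within replicates 1 and 2, against 5.61%; at an unadjusted p below 0.05 there were 2, 2 and 3 of the 7, and 1217, 1862 and 2171 of 10484 genes.

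Replicate 3 differed from the others in a direction that depended on the gene. Il1b and Il1rn were higher in replicate 3 than the mean of replicates 1 and 2 in all 6 groups, by 0.21 to 0.95 and 0.11 to 0.61 on the log2 scale. Il1a and Nlrp3 were higher in 5 of 6 groups. Il18 was lower in all 6 groups, with differences of -1.34 to -0.09, and Casp1 in 5 of 6. The share of this gap in the KO and WT comparisons was not tested beyond the block and the values within replicates 1 and 2.

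Over all 18 arrays Il1a and Il1b had the highest correlation of any pair of the 7, and within replicates 1 and 2 Casp1 and Casp4 did. The Pearson correlation of log2 signals of Il1a with Il1b was 0.93 over 18 arrays, 0.89 over the 12 arrays of replicates 1 and 2, and 0.99 over the 6 of replicate 3. That of Il1b with Nlrp3 was 0.82, 0.81 and 0.70 over the same arrays. That of Casp1 with Casp4 was 0.47, 0.92 and 0.81, lower over all arrays than within either series. Il1rn correlated with Il1b at 0.55 over 18 arrays and at -0.20 within replicates 1 and 2. These are descriptions: the arrays share the title-number series, the time course and the normalization.

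Among 342 other genes whose group means spanned at least 1 on the log2 scale, those most like Il1a over the 18 arrays were Kdm3a, a histone demethylase gene (r = 0.85), Adm, which encodes the vasodilator adrenomedullin (r = 0.80), and Zfp110 (r = 0.78). Those most like Il18 were AA467197 (r = 0.89), Ccl17, a chemokine gene (r = 0.84), and Cx3cl1, the gene of fractalkine (r = 0.80). Over the 6 group means r was 0.90, 0.77 and 0.90 for the genes named with Il1a. For those named with Il18 it was 0.80, 0.88 and 0.82. The 18 arrays share the title-number series, and the share of the replicate 3 gap in these correlations was not tested. The group means of the other 5 genes spanned less than 1.

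Lists of other genes of the pathway were read against the share of all genes called without a block, which was 0% to 1.28% over the 9 comparisons. At that share 0 calls in a list of 3 to 13 genes are no result about the list. Of 9 IL-1 and IL-18 receptor and decoy genes, 3 were tested (Il1rap, Il18bp and Sigirr), 4 were below the signal limit and 2 were not among the named rows. None of these 3 passed in any of the 9 comparisons. Their median decay difference at 90 min was 0.01, and the largest was -0.27 ± 0.36 for Il1rap, the accessory chain of the IL-1 receptor. The other IL-1 family ligands could not be tested, since Il33 and Il1f10 were below the limit and 5 were not among the named rows.

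Of 10 tested genes for signalling below the receptors, 0 passed in any comparison without a block, against at most 1.28% of all genes. Traf6, the ubiquitin ligase downstream of MyD88, had a log2 change of -0.63 ± 0.22 in KO and -0.65 ± 0.22 in WT over 90 min (limma adjusted p 0.563 and 0.240). Irak3, which encodes a brake on IL-1 and Toll-like receptor signalling, had a mean of 0.46 ± 0.16 above WT in KO over all times (adjusted p 0.234 without a block and 0.00183 with the series block). It was the 1 of the 10 called over all times with that block, against 4.68% of all genes. The list median of the decay difference at 90 min was 0.03, against 0.04 over all genes.

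Of 13 tested genes for other inflammasome sensors, the adaptor and regulators, 0 passed without a block, against at most 1.28% of all genes. With the series block 1 of the 13 passed over all times, against 4.68% of all genes. Mefv, which encodes the sensor pyrin, had the largest genotype difference of these, 1.00 ± 0.24 higher in KO over all times. The limma adjusted p was 0.0534 without a block and 0.00624 with the series block. Within replicates 1 and 2 the difference was 1.46 (limma adjusted p 8.65e-05), where 5.61% of all genes were called. It was smaller with replicate 3 included, so the replicates were uneven. Same-numbered KO arrays deviated together across times, so these p-values may stand for fewer independent samples. The Mefv log2 signal averaged 6.13 ± 0.27, 5.64 ± 0.16 and 5.77 ± 0.31 in KO at 0, 45 and 90 min (SD, n = 3 each). In WT it averaged 5.03 ± 0.97, 4.81 ± 0.65 and 4.71 ± 0.74. Txnip, a thioredoxin-binding protein gene, had a log2 change of -0.60 ± 0.23 in KO and -0.56 ± 0.23 in WT over 90 min, neither past the threshold. The list median of the decay difference at 90 min was -0.04, against 0.04 over all genes.

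Of 6 tested genes for pyroptosis, processing and release, 0 passed without a block, against at most 1.28% of all genes. In KO at 90 min 5 of the 6 had a higher mean than at 0 min, against 53.2% of all genes. The list median was 0.24, against 0.01 over all genes. In WT 2 of the 6 did, against 47.9% of all genes, with a median of -0.07, against -0.01 over all genes. Whether the list differs between genotypes was not tested. The gene of Hmgb1, a nuclear protein released from dying cells, had the largest decay difference at 90 min, 0.57 ± 0.40 (limma adjusted p 0.999), and its signals lay close to the limit, with group means of 2.86 to 3.29. The largest change in WT at 90 min was -0.26 ± 0.14 for Ninj1, which encodes a protein of plasma membrane rupture.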

How the data were processed

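Log2 signals of 18 arrays were analysed. RMA and Affymetrix Expression Console are named in the submitters' processing notes, without versions. The authors deposited intensities that are linear in scale, as their range shows. The log2 was taken without an offset, rows with 1 symbol were named through the platform annotation and RefSeq (GRCm38.p6), and the brightest row per symbol was kept. Tested were genes with at least 1 group mean at or above 2.97, the median over all rows (an intensity of 7.83).

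Group means were fitted over all 18 arrays with limma 3.58.1 in R 4.3.3, with Benjamini-Hochberg adjustment over all tested genes. Errors of differences are SE, and the number of arrays limits the precision. Same-numbered arrays deviated together for KO at 45 and 90 min against 0 min and for WT at 45 min. They also did for KO against WT at 0 and 90 min (lowest correlation of deviations in these comparisons 0.155). For WT at 90 min the lowest was -0.287. Replicate 3 stood apart from replicates 1 and 2, and that gap can give such correlations too. The check therefore cannot tell pairing by number from the title-number series. The fit was also run on simulated data with independent noise and no gap between the title-number series. That run does not check how the fit handles this gap. The 7 genes, the lists and the promoter motifs were chosen with earlier results of these data known. Every one of the 7 genes was named. In each list the genes past the threshold, up to 4, or else the largest change were named, and for genes whose group means spanned 1 or more the 3 most alike. Alternatives were a replicate block, the series block, replicates 1 and 2 alone, no signal filter, an offset, averaged rows, another normalization, centring on ribosomal protein genes and leaving out each array.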

Additional observations from a re-analysis of the deposited data

How the results depend on the processing

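With the replicate number as a block, limma called 26 genes in WT at 45 min, 293 in WT at 90 min, 26 in KO at 45 min, 57 in KO at 90 min, 32, 80 and 476 for KO minus WT at 0 min, at 90 min and over all times, and 3 of the 7 genes in WT at 90 min and 1 over all times. In comparisons where same-numbered arrays deviated together this block changed no call of the 7 genes. With the title-number series block the counts were 33, 300, 28, 61, 36, 91 and 491 in the same order, with 3 of the 7 genes in WT at 90 min and 1 over all times. Without a block they were 13, 125, 5, 23, 0, 15 and 134. Within replicates 1 and 2 they were 253 in WT at 45 min, 1360 in WT at 90 min (5 of the 7 genes), 39 in KO at 45 min, 7 for the decay difference at 90 min, 932 at 0 min (2 of the 7), 104 at 90 min and 588 over all times. Without the filter on low signal 12 genes were called in KO at 90 min and 1 for the decay difference at 90 min, and with quantile normalization 14 in KO at 45 min and 1 for that difference. Centred on 54 ribosomal protein genes the counts were 6, 75, 16 and 50 for WT at 45 and 90 min and KO at 45 and 90 min, 0 and 1 for the decay differences, 23 at 0 min and 606 over all times, where Il1rn was the 1 of the 7 called (0.50, adjusted p 0.0402). This centring moved the median of all genes by 0.30 for KO minus WT at 0 min, 0.17 over all times, 0.12 in WT and -0.11 in KO at 90 min, and -0.16 and -0.23 for the decay differences at 45 and 90 min. The cause of these shifts was not tested.

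Leaving out each array gave 3 to 252 genes in WT at 45 min, 68 to 291 in WT at 90 min, 1 to 20 in KO at 45 min, 2 to 63 in KO at 90 min, 1 to 80 and 1 to 3 for the decay differences at 45 and 90 min, 0 to 807 and 3 to 19 for KO minus WT at 0 and 90 min, and 79 to 493 over all times. Of the 7 genes it gave 0 to 1 in WT at 45 and 90 min and for KO minus WT at 0 min (Casp4, without WT 0 min replicate 3), and 0 to 0 elsewhere. Of 3042 alternative values of single genes, 5 reversed: Il1rap in WT without WT 0 min replicate 1 (-0.021 at 45 min and -0.14 at 90 min, with ranges over left-out arrays of -0.021 to 0.65 and -0.14 to 0.54), Il1rn in KO at 90 min without KO 90 min replicate 1 (0.18, with a range of -0.25 to 0.18), Nlrp3 for KO minus WT at 0 min with ribosomal centring (0.28) and Il1a over all times within replicates 1 and 2 (-0.11). Another 72 changed sign by less than 1 SE, with no value past the threshold. Over 26 alternatives the change in WT at 90 min was -1.39 to -0.78 for Il1a, -1.01 to -0.56 for Il1b and -1.14 to -0.71 for Nlrp3, each called in 3 of them.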
